A study of Vitis vinifera with 9 samples.

Results

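The members described here were 94 probe sets of the grape genome array whose deposited gene titles name enzymes or proteins of lipid metabolism and of jasmonate synthesis, out of 10471 probe sets with a title and 16601 on the array. A title counted if it held 1 of 16 words (among them lipoxygenase, allene oxide, oxophytodienoate, desaturase, lipid transfer, lipase, acyl carrier, acyl-CoA and sterol), and 1 title on carotene or phytoene was set aside. The 94 probe sets carried 81 distinct gene symbols and were sorted by title into 11 of jasmonate and related oxylipins, 23 of the leaf surface, 37 of membrane lipids and 23 of lipid breakdown. A total of 2 were placed by their name rather than by the words, hydroperoxide lyase with the jasmonate enzymes and a condensing enzyme of very long acyl chains with the surface.

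The arrays came from detached, 30-day-old leaves of Vitis vinifera 'Hongbaladuo' standing with their petioles in water. Control leaves were taken at 0 h, and the others at 6 h and 12 h after UV-C of 6 W/m2 for 10 min given to the lower leaf side. All leaves first stood in darkness at 25 °C, and each of the 3 replicates of a group was a pool of 6 leaves on 1 array. Leaves without UV-C were not sampled at 6 h or 12 h, so UV-C cannot be told apart from hours of detachment, light conditions or time of day. The p-values measure the spread between these pools. A whole leaf was measured, and fewer cells of a type and less RNA per cell cannot be told apart.

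Jasmonate is made from linolenic acid of chloroplast membranes. A lipoxygenase adds oxygen, allene oxide synthase and a cyclase form 12-oxophytodienoic acid, a reductase acts on it in the peroxisome, and rounds of beta-oxidation shorten the chain. In leaves jasmonate is known as a wound and defence signal. The cuticle is built by epidermal cells from very long acyl chains and cutin, and desaturases set how fluid the membranes are.

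The 9 arrays were close to each other within groups, with correlations of 0.988 to 0.996 across probe sets. The values are RMA signals, the background-corrected and quantile-normalized brightness of a probe set, from 3.80 to 30874 over the array. A member was called when limma gave an adjusted p under 0.05, over 16436 probe sets, together with a change of at least 2-fold. Errors after ± are standard errors in log2 units, with n = 3 arrays per group. All 94 members had mean signals above 17.7, the level that leaves the dimmest 25% of the probe sets below it. The tissue label was checked with 23 probe sets of photosystem and light-harvesting proteins. Their summed signal was 198542 to 215523 in control, 130042 to 141694 at 6 h and 69437 to 75658 at 12 h, and 8 of the 23 had fallen at 6 h and 14 at 12 h, with 1 risen at 12 h. The word lists for epidermis, xylem, guard cells and storage tissue matched no title. The phloem list held 3 sucrose transporters with no common direction. VVSUC11 fell (log2 change −1.55 at 6 h and −1.73 at 12 h). VVSUC27 (0.50 and −0.32) and VVSUC12 (0.43 and 0.13) were higher at 6 h and were not called at either time. The part of such cell types and of the photosystem decline in the results below was not tested.

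Among the 94 members, 12 rose and 36 fell at 6 h against control. The background at this time was 26.6% called over all probe sets tested (11.9% rose, 14.7% fell) and 38.8% over those with a title, which are brighter (17.8% rose, 21.1% fell). At 12 h, rises numbered 16 and falls 38, against 32.2% called over all probe sets (14.7% rose, 17.5% fell) and 46.7% over titled ones (21.6% rose, 25.1% fell). The share of falls among the members was thus above both backgrounds at both times, while that of rises, 12.8% and 17.0%, was not above the titled background. The median log2 change of the members was −0.48 at 6 h and −0.68 at 12 h, compared with −0.03 and 0.05 over all probe sets and −0.10 and 0.03 over titled ones. A set of 10 members had risen at both times and 32 had fallen at both, and no member had opposite calls. In the direct comparison of 12 h with 6 h, 2 members had risen and 14 had fallen. The background there was 6.88% called over all probe sets (2.34% rose, 4.54% fell) and 10.4% over titled ones (3.45% rose, 6.95% fell).

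**Figure D1:**
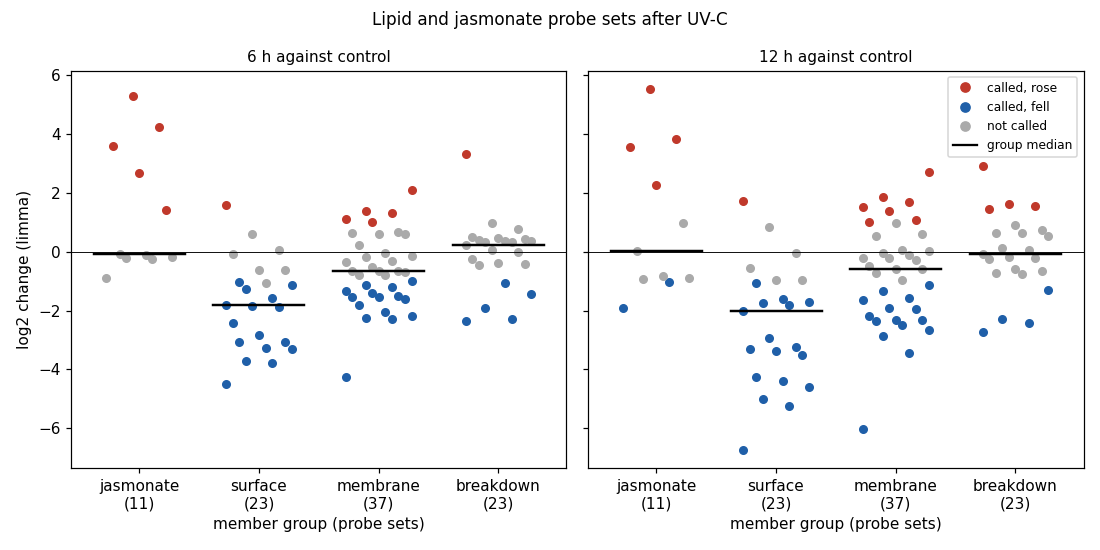
Log2 change against control (y axis) of each of the 94 probe sets in its group (x axis) at 6 h and at 12 h, with called rises in red, called falls in blue, other members in grey and the group median as a black line. The surface group sits lowest, with medians of −1.80 and −2.02, and the jasmonate group holds the changes farthest above 0.

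In the jasmonate group LOXO, allene oxide synthase, OPR3, an OPR2-like reductase and hydroperoxide lyase rose at 6 h, 5 of its 11 probe sets, while the other 5 lipoxygenase probe sets were not called at that time. The counts at 12 h were 4 rises and 2 falls, with 5 falls when 12 h replicate 1 was left out. They were 5 rises and 1 fall with arrays centred on their median, and also after further quantile normalization. Rises were 45.5% at 6 h and 36.4% at 12 h, above those of all (11.9% and 14.7%) and of titled probe sets (17.8% and 21.6%). The 18.2% of falls at 12 h was close to that of all probe sets (17.5%) and below that of titled ones (25.1%). The median of the group was near 0 (−0.06 and 0.04) and took either sign under other scalings of the arrays, so the members are given one by one.

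LOXO, a lipoxygenase, had signals of 149, 41.1 and 57.5 in control, 1089, 1528 and 1415 at 6 h, and 1332, 1235 and 605 at 12 h. Control replicate 1 was the highest of its group, yet every later array lay above it. The log2 change was 4.24 ± 0.45 at 6 h (18.8-fold, adjusted p = 2.68e-05 from limma) and 3.82 ± 0.45 at 12 h (14.1-fold, adjusted p = 4.23e-05).

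Allene oxide synthase (LOC100267750), which turns the lipoxygenase product into the precursor of 12-oxophytodienoic acid, read 190, 154 and 132 in control. The 6 h arrays read 6194, 6636 and 5751, and the 12 h arrays 8642, 8533 and 5281. The groups were far apart from control at both times and overlapped with each other. The change was 5.30 ± 0.20 at 6 h (39.4-fold, adjusted p = 3.41e-08) and 5.54 ± 0.20 at 12 h (46.5-fold, adjusted p = 1.54e-08), the farthest above 0 of all 94 members at both times.

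OPR3 (LOC100262732), the reductase that in Arabidopsis works in jasmonate synthesis, stood at 686, 750 and 664 in control, at 4674, 4457 and 4171 at 6 h, and at 3494, 3534 and 3104 at 12 h. The 3 groups did not overlap, with 6 h the highest. Its rise was 2.66 ± 0.10 at 6 h (6.34-fold, adjusted p = 2.86e-08 from limma) and 2.27 ± 0.10 at 12 h (4.83-fold), and the step down from 6 h to 12 h was 1.31-fold (adjusted p = 0.0152), under the 2-fold line of a call.

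The reductase LOC100244746, whose title likens it to Arabidopsis OPR2, another reductase of this family, read 229, 211 and 346 in control, 660, 1128 and 437 at 6 h, and 455, 528 and 540 at 12 h. Neither later group overlapped control, and the 6 h arrays were widely spread. It rose 1.43 ± 0.31 at 6 h (2.69-fold, adjusted p = 0.00306 from limma). At 12 h the value was 0.98 ± 0.31 (1.98-fold, adjusted p = 0.0202 from limma), just under a call. It became a call without control replicate 3 (1.20) or 12 h replicate 1 (1.06). The same happened with arrays centred on their median (1.12) or after further quantile normalization (1.03). The OPR1-like LOC100256548, with control arrays from 146 to 432, had log2 values of −0.06 ± 0.33 and 0.04 ± 0.33.

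HPLA, a hydroperoxide lyase, uses the same lipoxygenase products as allene oxide synthase but splits them into aldehydes, the green leaf volatiles. Its control signals were nearly equal, 136, 138 and 136. The 6 h arrays read 1891, 1768 and 1379, and the 12 h arrays 1930, 1685 and 1251. All later arrays were above control, and the 6 h and 12 h arrays overlapped. The rise was 12.2-fold at 6 h (log2 3.61 ± 0.17, adjusted p = 1.11e-07 from limma) and 11.7-fold at 12 h (3.55 ± 0.17, adjusted p = 7.63e-08).

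LOXA, another lipoxygenase, was measured by 4 probe sets, and the titles of some liken it to Arabidopsis LOX2, a chloroplast lipoxygenase known from jasmonate synthesis. The brightest read 684, 684 and 1290 in control, 1009, 638 and 567 at 6 h, then 843, 435 and 234 at 12 h. The groups overlapped, with control replicate 3 high and 12 h replicate 3 low. At 6 h the 4 probe sets had log2 values from −0.24 to −0.11 (adjusted p of 0.693 to 0.807). At 12 h the dimmest fell by 1.03 ± 0.33 (control 52.0, 78.5 and 52.5, 12 h 46.2, 26.7 and 20.5, adjusted p = 0.0215), and the other 3 stood at −0.94, −0.88 and −0.81 with adjusted p of 0.0947, 0.104 and 0.149. Single arrays and the processing decided these calls. The dimmest stood at −0.89 with arrays centred on their median and at −0.95 after further quantile normalization, neither a call. With the 4 probe sets averaged the value was −0.91, also no call. The fall of the dimmest was not called without control replicate 2 (−0.83) or without 12 h replicate 2 (−0.96) or 3 (−0.77), and without 12 h replicate 1 the other 3 were called too, at −1.41, −1.31 and −1.27.

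The lipoxygenase LOC100251097 went down in steps, with 509, 454 and 698 in control, 275, 260 and 350 at 6 h, and 136, 182 and 124 at 12 h. No 2 of its groups overlapped. It fell by 1.91 ± 0.20 on the log2 scale at 12 h (adjusted p = 1.8e-05 from limma), and the 6 h value of −0.90 (adjusted p = 0.00355) missed the 2-fold line, which it crossed without control replicate 2 (−1.03) or 6 h replicate 3 (−1.03). Its step from 6 h to 12 h (−1.01, adjusted p = 0.00475 from limma) was a call. That call ended without 6 h replicate 3 (−0.88), 12 h replicate 1 (−0.96) or 12 h replicate 3 (−0.90). With arrays centred on hybridization controls the 6 h value crossed the line (−1.06) and the step did not reach it (−0.99). The step was no call after further quantile normalization either (−0.96).

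**Figure D2:**
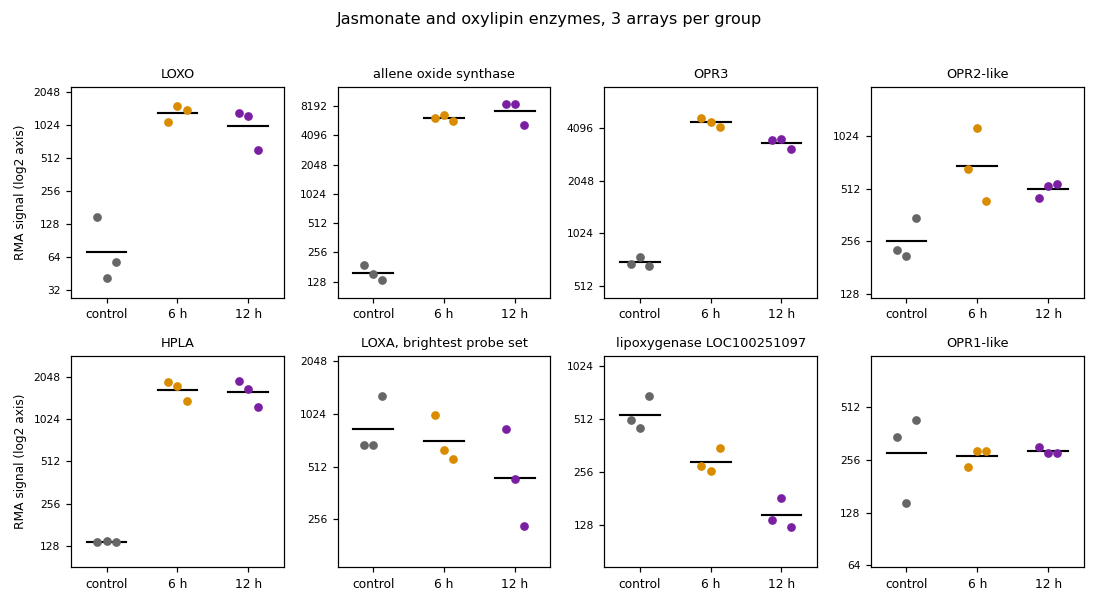
RMA signal on a log2 axis (y) of 8 jasmonate and oxylipin probe sets in control, 6 h and 12 h leaves (x), with 1 point per array and the geometric mean of the 3 arrays as a bar. LOXO, allene oxide synthase, OPR3 and HPLA lie clear of control at both times, while LOXA overlaps control and the lipoxygenase LOC100251097 steps down from 454 to 698 in control to 124 to 182 at 12 h.

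Some jasmonate genes carry no such word in their deposited titles, and their names here come from the study's list of changed genes. They were thus chosen for having changed in these samples, and their values are a description with no test. A probe set named 12-oxophytodienoate reductase 2 and shared by LOC100255087 and LOC100256781 went from 26.0, 23.6 and 12.6 in control to 555, 1217 and 396 at 6 h and 508, 520 and 742 at 12 h, and another of LOC100256781 alone showed the same course (log2 4.45 and 4.27). A probe set named jasmonic acid carboxyl methyltransferase, the enzyme that makes volatile methyl jasmonate, read 28.5, 21.4 and 14.2 in control. It stood at 471, 758 and 391 at 6 h and at 97.7, 128 and 69.8 at 12 h, so that the 12 h arrays lay between the other groups. The conjugating enzyme LOC100251627, which links jasmonic acid to amino acids, had 695 to 844 in control, 2772 to 3787 at 6 h and 2321 to 2740 at 12 h. LOC100254231, a JAZ repressor of jasmonate responses, read 1306, 440 and 494 in control, 6079, 7363 and 6261 at 6 h, and 4705, 4877 and 3301 at 12 h. All of these were above control at both times on every array.

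Of the word list for jasmonate signalling and turnover outside the members, 3 of 5 probe sets fell at 6 h (60%) and 4 of 5 at 12 h (80%). Falls made up 14.7% of all probe sets and 21.1% of titled ones at 6 h, and 17.5% and 25.1% at 12 h. A pair of the 5 are potassium channels caught by a shared run of letters, SIRK and LOC100247627, and had log2 changes of −2.46 and −3.85 at 12 h. LOC100257930, likened to the Arabidopsis hydrolase ILR1, is titled for amino acid conjugates of the auxin IAA and not of jasmonate. It read 65.1, 80.0 and 79.5 in control and 27.5, 29.5 and 31.0 at 12 h, a fall of 1.35 ± 0.16 (adjusted p = 4.42e-05 from limma). The counts of this list are thus not counts of jasmonate genes. MYC2, the transcription factor known from Arabidopsis to switch on jasmonate responses and named here after its values were seen, had 305, 228 and 220 in control, 196, 288 and 210 at 6 h and 89.8, 108 and 98.6 at 12 h. Its 6 h arrays overlapped control, and its 12 h arrays were below both (−1.33 ± 0.17, adjusted p = 8.97e-05). COI1 (LOC100254771), the jasmonate receptor, stayed between 361 and 518 over the 9 arrays (log2 −0.14 and 0.10, neither called).

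The surface group fell more than any other group here by its count. Of 23 probe sets, 16 fell and 1 rose at 6 h (69.6% and 4.35%). At 12 h falls numbered 17 and rises 1 (73.9% and 4.35%), with medians of −1.80 and −2.02. Titled probe sets had 21.1% falls and 17.8% rises at 6 h, and 25.1% and 21.6% at 12 h. Over all probe sets these were 14.7% and 11.9%, and 17.5% and 14.7%. The same 15 surface probe sets had fallen at both times. By family, 11 of 14 lipid transfer protein probe sets fell at each time (78.6%). Of 4 GDSL lipases, 2 fell at 6 h (50%) and 3 at 12 h (75%). Of 5 elongation enzymes, 3 fell at each time (60%) while 1 rose (20%).

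Lipid transfer proteins are small secreted proteins that bind acyl chains, and several are known from the epidermis. LOC100233106, titled isoform 4, was among the bright signals of the control leaf with 15372, 16228 and 8043. It read 3811, 2086 and 1660 at 6 h, then 116, 114 and 124 at 12 h. The 3 groups were fully apart, and the 12 h arrays agreed within a few units. The log2 change was −2.42 ± 0.33 at 6 h and −6.74 ± 0.33 at 12 h (107-fold, adjusted p = 8.12e-08 from limma), and the step between the times was 20.1-fold (−4.33 ± 0.33, adjusted p = 4.28e-05).

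Its close relative LOC100232872, named here after its values were seen, gave other numbers. A pair of bright probe sets of this gene, which may also bind near-identical isoforms, had 23454 to 27313 in control, 15253 to 17721 at 6 h and 12098 to 14830 at 12 h, near the top of the signal range of the array. Their log2 values were −0.61 and −0.63 (6 h) and −0.97 and −0.95 (12 h), under the 2-fold line. At 12 h both passed it without 12 h replicate 3 (−1.02 and −1.01), and the first also without control replicate 3 (−1.0). The probe set for isoform 1 that is not as bright, with 4009 to 4452 in control and 989 to 1166 at 12 h, fell by 2.02 ± 0.11, and the probe set shared with LOC100233106 fell by 2.93 ± 0.15 from 11096 to 16514 down to 1747 to 1910. In the RefSeq gene order of the Pinot Noir 40024 assembly LOC100232872 is the direct neighbour of another lipid transfer protein, LOC100261985, which went from 8330, 11142 and 14916 in control to 2073, 1217 and 914 at 6 h and 1142, 537 and 2299 at 12 h (log2 −3.08 ± 0.49 and −3.31 ± 0.49).

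LOC100259092 went from 1727, 1919 and 1868 in control to 151, 132 and 120 at 6 h and 79.2, 70.6 and 75.9 at 12 h. Its arrays lay close together within each group and apart between groups. It fell by 3.78 ± 0.11 at 6 h (adjusted p = 7.55e-09 from limma) and by 4.61 ± 0.11 at 12 h (24.4-fold). LOC100265591 read 563, 1098 and 1106 in control, 41.7, 46.4 and 30.5 at 6 h, then 31.6, 17.1 and 37.8 at 12 h. The later arrays overlapped each other and came down to the dim end of the array, and its log2 change at 12 h, −5.01 ± 0.34 (32.2-fold, adjusted p = 8e-07), was read against dim signals.

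LOC100249830 had 2825, 3054 and 1348 in control, 112, 188 and 240 at 6 h and 51.6, 124 and 33.9 at 12 h. Both later groups were below control and overlapped each other. Its log2 change was −3.72 ± 0.49 at 6 h and −5.24 ± 0.49 at 12 h (adjusted p = 8.01e-06 from limma). The step between the times (−1.51, adjusted p = 0.0447), was lost with an adjusted p of 0.0503 to 0.151 when control replicate 1 or 2, 6 h replicate 2 or 3, or 12 h replicate 1 or 3 was left out. The step was lost too with robust estimation and a trend in limma (adjusted p = 0.0667). The other called lipid transfer probe sets had log2 changes from −3.37 to −1.76 at 12 h, and LOC100250515, chosen after its values were seen, stood above control on every array, with 1077 to 1267 in control and 1959 to 2269 at 12 h (log2 0.83, adjusted p = 0.00136, under 2-fold).

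GDSL lipases are secreted hydrolases, and some are known in tomato and Arabidopsis to build cutin. LOC100263626 read 3029, 3274 and 2728 in control, 304, 343 and 272 at 6 h and 155, 136 and 184 at 12 h. LOC100260207 read 1414, 2290 and 2224, then 312, 175 and 143, then 99.3, 53.5 and 140. Both were lower at 6 h than on any control array, and lower again at 12 h with no overlap. They fell 9.85-fold and 9.74-fold at 6 h, and 19.1-fold (log2 −4.26 ± 0.14) and 21.3-fold (−4.41 ± 0.38) at 12 h, with adjusted p of 9.03e-09 and 4.6e-06 from limma. Neither step between the times was a call, yet each became one without 6 h replicate 3 (LOC100263626 −1.04, LOC100260207 −1.37) or 12 h replicate 3 (−1.07 and −1.44), and LOC100260207 also without control replicate 1 (−1.13). In the RefSeq gene order this pair are direct neighbours, with no protein-coding gene between them. The array's own genome build is not given in the sources used here, so no coordinates are printed.

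Another GDSL lipase, LOC100255578, followed another course. It had 97.5, 92.1 and 202 in control, 113, 131 and 138 at 6 h, then 28.0, 50.9 and 35.9 at 12 h. The 6 h arrays lay inside the control range (log2 0.06 ± 0.30), and the 12 h arrays lay below all others. The fall at 12 h was 1.72 ± 0.30 against control (adjusted p = 0.000719 from limma) and 1.78 ± 0.30 against 6 h (adjusted p = 0.0023).

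Ketoacyl-CoA synthases carry out the first step of elongation to the very long chains of waxes. A pair of them, LOC100263066 and LOC100266256, have titles likened to the same Arabidopsis protein and moved in opposite directions. LOC100263066 read 2506, 2480 and 2128 in control, 720, 604 and 660 at 6 h, then 206, 189 and 222 at 12 h. The groups did not overlap, and the log2 change was −1.84 ± 0.11 at 6 h and −3.53 ± 0.11 at 12 h (11.5-fold, adjusted p = 7.9e-09 from limma). LOC100266256 read 1020, 573 and 766 in control, 2006, 2605 and 2383 at 6 h and 2880, 2897 and 1994 at 12 h. It was above control on all later arrays, with a rise of 1.6 ± 0.22 (3.03-fold) and 1.74 ± 0.22 (3.34-fold, adjusted p = 7.49e-05), the only called rise of the 23 surface probe sets.

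**Figure D3:**
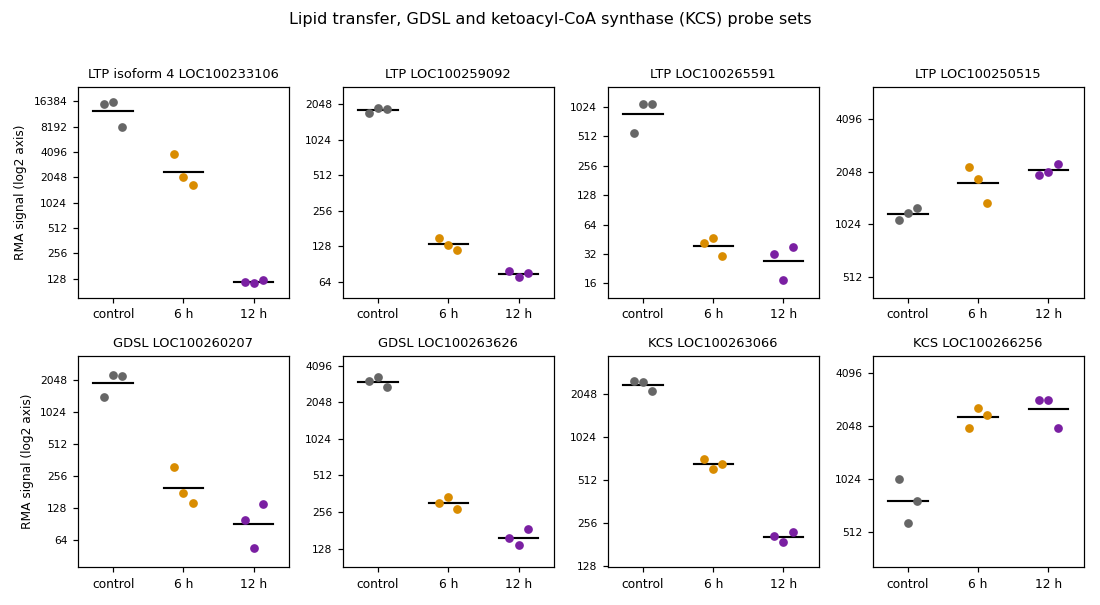
RMA signal on a log2 axis (y) of 4 lipid transfer protein (LTP), 2 GDSL and 2 ketoacyl-CoA synthase (KCS) probe sets in control, 6 h and 12 h leaves (x), with 1 point per array and the geometric mean as a bar. LTP isoform 4 drops from 8043 to 16228 in control to 114 to 124 at 12 h, and the 2 KCS probe sets move in opposite directions.

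The genes likened to glycerol-3-phosphate acyltransferases of cutin synthesis are named only by the study's list of changed genes, so their values too are a description. Both probe sets belong to LOC100243093. The brighter had 442, 494 and 490 in control, 77.1, 75.2 and 69.3 at 6 h and 35.4, 33.0 and 41.4 at 12 h, and the dimmer 62.4 to 126 in control and 10.96 to 14.5 at 12 h. The groups were apart from control in both. A word list for cutin and wax outside the members matched no title.

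Membrane lipid genes fell more often than they rose, and the falls included both the making and the desaturation of fatty acids. Of 37 probe sets, 15 fell and 5 rose at 6 h (40.5% and 13.5%). At 12 h falls numbered 15 and rises 7 (40.5% and 18.9%), with medians of −0.65 and −0.58. Titled probe sets had 21.1% falls and 17.8% rises at 6 h, and 25.1% and 21.6% at 12 h. Over all probe sets these were 14.7% and 11.9%, and 17.5% and 14.7%. The share of falls was thus above both backgrounds, and that of rises was below the titled one. Of 8 desaturase probe sets of fatty acids and sphingolipids, 5 fell and 1 rose at 6 h (62.5% and 12.5%), and 4 fell at 12 h (50%). Among 14 acyl carrier proteins and synthesis enzymes 6 fell at each time (42.9%), and 2 rose at 12 h (14.3%). Of 14 sterol enzymes and carriers 3 rose and 4 fell at 6 h (21.4% and 28.6%), not far from the titled shares. The counts at 12 h were 4 and 5 (28.6% and 35.7%).

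The omega-6 desaturases of the endoplasmic reticulum make linoleic acid. LOC100258789 of this kind had 2176, 2364 and 2723 in control, 119, 131 and 125 at 6 h, then 47.0, 29.9 and 35.4 at 12 h. The 3 groups were well apart. Its log2 change was −4.27 ± 0.16 at 6 h (19.3-fold) and −6.03 ± 0.16 at 12 h (65.5-fold, adjusted p = 3.26e-09 from limma), with a step between the times of 3.4-fold (adjusted p = 9.88e-05). A second, LOC100252129, likened to the same Arabidopsis enzyme and chosen after its values were seen, read 3756, 3809 and 3778 in control and 824, 757 and 717 at 12 h, a fall of 2.31 ± 0.10. The plastid omega-6 desaturase LOC100248377, chosen likewise, had 1722 to 2319 in control, 1817 to 2011 at 6 h and 1156 to 1581 at 12 h, with log2 values of −0.14 ± 0.15 and −0.60 ± 0.15 that were not called. Of 3 stearoyl-ACP desaturases, which put the first double bond into plastid fatty acids and were likewise picked afterwards, LOC100242444 was called at both times (log2 −1.55 and −2.31), LOC100266553 at 6 h (−1.42, against −0.72 at 12 h), and GSVIVT00014296001 at neither (0.23 and 0.55).

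The omega-3 desaturase LOC100247097, likened to the temperature-sensitive plastid enzyme of Arabidopsis that makes linolenic acid, read 4648, 4559 and 4167 in control, 1680, 1328 and 1757 at 6 h, and 634, 564 and 622 at 12 h. Each group was below the one before it on every array. The log2 change was −1.50 ± 0.12 at 6 h, −2.88 ± 0.12 at 12 h (7.35-fold, adjusted p = 3.74e-08 from limma) and −1.38 ± 0.12 between the times. In the RefSeq gene order 2 genes lie between it and LOC100257352, a breakdown member that rose (below).

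LOC100265385, likened to the delta-8 sphingolipid desaturase and named after its values were seen, went up and came back. Its signals were 383, 301 and 412 in control, 766, 750 and 840 at 6 h, then 356, 422 and 287 at 12 h. The 6 h arrays were above all others, and the 12 h arrays overlapped control. The rise at 6 h was 1.12 ± 0.16 (adjusted p = 0.000223 from limma). It was under 2-fold without control replicate 2 (0.98) or with arrays centred on hybridization controls (0.95). The value at 12 h was −0.05 ± 0.16, and the step from 6 h to 12 h was −1.16 ± 0.16 (adjusted p = 0.0008).

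Acyl carrier proteins hold the growing chain during fatty acid synthesis, and their probe sets went in both directions. LOC100253968 read 2628, 2764 and 4247 in control, 666, 652 and 666 at 6 h and 281, 294 and 294 at 12 h, and fell by 3.44 ± 0.16 at 12 h (10.8-fold, adjusted p = 7.53e-08 from limma). LOC100258657 went from 2579, 2571 and 2490 to 901, 728 and 886 and then to 401, 414 and 402 (log2 −2.65 ± 0.10 at 12 h, adjusted p = 2.1e-08). In both genes all 3 groups were apart. Both steps between the times were calls (−1.19 and −1.04), the latter not without 6 h replicate 1 (−0.99) or 3 (−1.0).

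LOC100257302, an acyl carrier protein with 2 probe sets, rose. The brighter at 12 h had 768, 833 and 1091 in control, 1398, 1385 and 1356 at 6 h and 2784, 2982 and 3976 at 12 h, and the other 848 to 947, 1097 to 1642 and 2285 to 3103. Neither overlapped between groups. The rises at 12 h were 1.85 ± 0.16 (3.62-fold, adjusted p = 5.1e-06 from limma) and 1.53 ± 0.16 (2.89-fold), and those at 6 h, 0.64 and 0.61, were not called. The step between the times was a call in the first (1.22, adjusted p = 0.000667) and under 2-fold in the second (0.92), which became one without 6 h replicate 3 (1.05) or 12 h replicate 1 (1.02). The dehydratase LOC100266972, of the same synthesis cycle, fell by 2.49 ± 0.16 at 12 h, from 171, 235 and 193 in control to 34.8, 37.99 and 33.1.

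From the fatty acid synthesis words outside the members, 2 of 3 probe sets fell at 6 h (66.7%) and 1 at 12 h (33.3%). Falls made up 14.7% of all probe sets and 21.1% of titled ones at 6 h, and 17.5% and 25.1% at 12 h. LOC100266760, a biotin carboxyl carrier, fell at 6 h only by this test (log2 −1.71, against −0.97 at 12 h). The gene called at both times was LOC100241680, an enoyl-ACP reductase, with 449, 337 and 672 in control, 145, 206 and 101 at 6 h and 242, 252 and 156 at 12 h. Its 12 h call (−1.14 ± 0.32, adjusted p = 0.0105 from limma) was lost without control replicate 3 (−0.88) or 12 h replicate 3 (−0.92).

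Among sterol genes, the oxysterol-binding proteins, thought to carry sterols or lipids between membranes, rose. LOC100263081 had 211, 199 and 236 in control, 999, 1012 and 788 at 6 h and 1608, 1435 and 1169 at 12 h, with no overlap between groups. It rose 2.11 ± 0.15 (4.32-fold) and 2.70 ± 0.15 (6.48-fold, adjusted p = 1.83e-07 from limma). LOC100251963, likened to the same Arabidopsis protein, rose in both of its probe sets at both times, by 1.39 and 1.4 in the dimmer. In the brighter (1101 to 1394 in control, 2352 to 2504 at 12 h) the rise was 1.02 at both times. It dropped under 2-fold without control replicate 1 (0.99 and 0.98) or 2 (0.95 and 0.95), and at 6 h without 6 h replicate 2 (0.96). It was under 2-fold too with arrays centred on hybridization controls (0.86 and 0.87), and at 12 h after further quantile normalization (0.97).

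The sterol C5-desaturase LOC100265283 fell. Its first probe set read 610, 506 and 590 in control, 274, 287 and 288 at 6 h and 107, 118 and 112 at 12 h, and the second 385 to 569, 281 to 323 and 133 to 166. No groups overlapped. At 12 h the log2 changes were −2.34 ± 0.10 (adjusted p = 3.96e-08 from limma) and −1.63 ± 0.15 (adjusted p = 7.04e-06). At 6 h the first just reached the 2-fold line (−1.0), and the second stood at −0.65. The first was no call without control replicate 1 (−0.95) or 3 (−0.98) or 6 h replicate 1 (−0.98). It was none with arrays centred on their median (−0.87) or after further quantile normalization (−0.997) either. Between the times the first changed by −1.34 and was a call, and the second, at −0.98, became a call without 6 h replicate 1 (−1.03) or 12 h replicate 2 (−1.05) or 3 (−1.0).

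The sterol methyltransferases, which shape the side chain of plant sterols, were chosen after their values were seen. LOC100262458 had 526, 486 and 827 in control, 156, 126 and 95.3 at 6 h and 155, 167 and 155 at 12 h (log2 −2.27 ± 0.22 and −1.91 ± 0.22), and LOC100263590 had log2 changes of −1.55 and −1.93. Both were called at both times, while the 2 bright probe sets of LOC100254003 stood at −0.65 and −0.51 at 6 h and at −0.21 and −0.11 at 12 h and were not. The sterol dehydrogenase LOC100245662 was dim, with 32.3, 26.5 and 34.8 in control and 73.1, 74.0 and 51.4 at 12 h. Its rise of 1.07 ± 0.16 (adjusted p = 0.000205 from limma) was under 2-fold without control replicate 2 (0.96) or 12 h replicate 1 (0.99) or 2 (0.98). The rise was also under 2-fold with arrays centred on hybridization controls (0.93).

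The acyl-CoA binding protein LOC100262327, of a family that carries acyl-CoA in the cell, went from 437, 373 and 373 in control to 1010, 960 and 971 at 6 h and 1372, 1218 and 1193 at 12 h. All groups were apart. It rose 1.32 ± 0.10 at 6 h and 1.68 ± 0.10 at 12 h (3.2-fold, adjusted p = 3.73e-07 from limma).

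**Figure D4:**
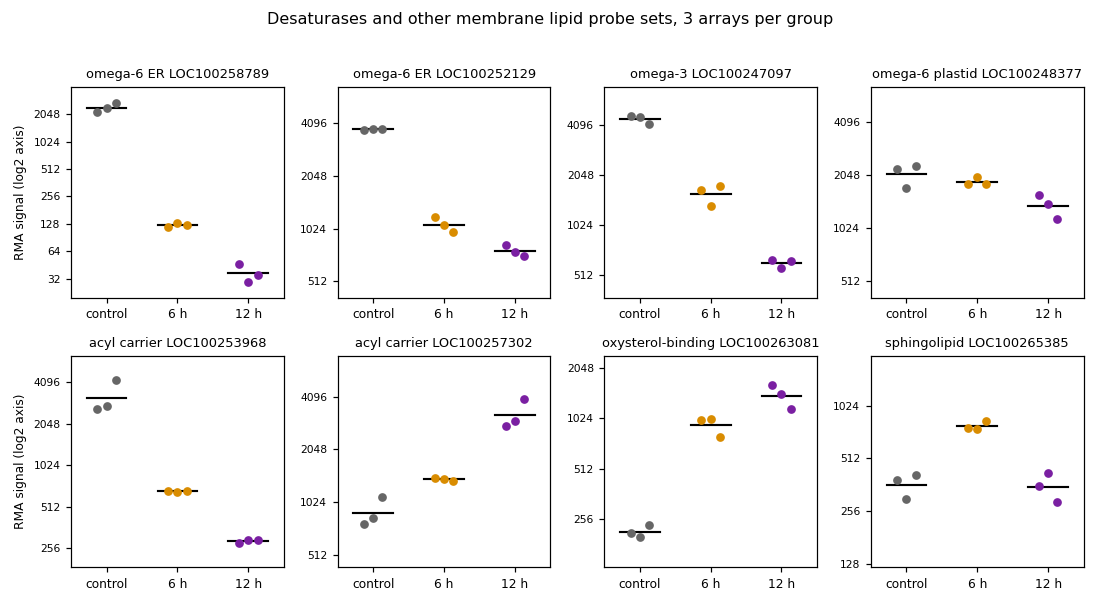
RMA signal on a log2 axis (y) of 8 membrane lipid probe sets in control, 6 h and 12 h leaves (x), with 1 point per array and the geometric mean as a bar. The endoplasmic reticulum (ER) omega-6 desaturase LOC100258789 drops from 2176 to 2723 in control to 29.9 to 47.0 at 12 h, the acyl carrier proteins go opposite ways, and the sphingolipid desaturase is high at 6 h only.

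Beyond the members, the word list for glycerolipids and their signals held 8 rises and 1 fall among 15 probe sets at 6 h (53.3% and 6.67%). It held 7 rises and 1 fall at 12 h (46.7% and 6.67%). Rises made up 11.9% of all probe sets and 17.8% of titled ones at 6 h, and 14.7% and 21.6% at 12 h. Falls made up 14.7% and 21.1% at 6 h, and 17.5% and 25.1% at 12 h. One gene of this list, LOC100264477, is a kinase related to cholinesterase by title only, and its 2 probe sets gave 2 of the 8 rises at 6 h. The choline kinase LOC100243934, of the first step to phosphatidylcholine, read 186, 142 and 114 in control, 2588, 1849 and 1469 at 6 h, then 810, 755 and 687 at 12 h. The groups were apart, with 6 h highest. Its rise was 13.3-fold at 6 h (log2 3.73 ± 0.22, adjusted p = 5.21e-07 from limma) and 5.19-fold at 12 h. Another choline kinase, LOC100256116, rose 7.42-fold and 7.26-fold in its 2 probe sets at 6 h and 5.49-fold and 5.13-fold at 12 h. The diacylglycerol kinase LOC100247408, which makes the signal lipid phosphatidic acid, rose 6.51-fold and 6.74-fold, from 52.0, 32.2 and 42.5 in control to 311, 328 and 214 at 12 h. Digalactosyldiacylglycerol synthase LOC100259167, which makes a major lipid of chloroplast membranes, fell from 2791, 2467 and 2585 to 716, 729 and 843 at 6 h and 588, 586 and 485 at 12 h (−2.24 ± 0.12 at 12 h, adjusted p = 1.16e-07). It was the 1 fall of the list at both times.

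Of the breakdown group 26.1% was called at 6 h and 34.8% at 12 h. These shares were close to those of all probe sets (26.6% and 32.2%) and below those of titled ones (38.8% and 46.7%). At 6 h the 23 probe sets of the group held 1 rise and 5 falls (4.35% and 21.7%). All probe sets had 11.9% and 14.7%, and titled ones 17.8% and 21.1%. At 12 h rises and falls numbered 4 each (17.4%), close to the 14.7% and 17.5% of all probe sets and below the 21.6% and 25.1% of titled ones. Its median was 0.21 at 6 h and −0.07 at 12 h, the latter of either sign under other scalings. The called rises at 12 h were 1 lysophospholipase-like gene and 3 genes of beta-oxidation, and the falls were 3 phospholipase probe sets and 1 acyl-CoA synthetase.

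Beta-oxidation in the peroxisome shortens fatty acids and is also the last stretch of jasmonate synthesis. LOC100257352, titled acyl-CoA dehydrogenase, had 257, 337 and 223 in control, 433, 459 and 469 at 6 h, then 834, 809 and 854 at 12 h. The multifunctional protein LOC100244762, which carries out the middle steps, had 628, 581 and 699, then 834, 774 and 762, then 2002, 1726 and 1476. The thiolase LOC100247651, of the last step, had 2554, 2345 and 2376, then 4714, 5197 and 4324, then 8118, 7202 and 6269. In all of these the groups were apart, in the order control, 6 h and 12 h.

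Their rises at 12 h were 1.63 ± 0.14 (3.11-fold, adjusted p = 4.45e-06 from limma), 1.44 ± 0.13 (2.71-fold, adjusted p = 5.19e-06) and 1.56 ± 0.12 (2.95-fold, adjusted p = 1.84e-06). At 6 h they stood at 0.76, 0.32 and 0.97, none of them called, and the thiolase alone became a call without control replicate 1 (1.00) or 6 h replicate 3 (1.03). The step from 6 h to 12 h was a call for LOC100244762 (1.13, adjusted p = 0.000272), while it was 0.88 for LOC100257352 and 0.60 for LOC100247651, under 2-fold.

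Another thiolase, LOC100245940, likened to the same Arabidopsis protein as LOC100247651, took another course. It read 458, 534 and 423 in control, 786, 489 and 596 at 6 h, then 306, 246 and 284 at 12 h. The 6 h arrays overlapped control, and the 12 h arrays were below all others. Against 6 h it fell by 1.14 ± 0.17 at 12 h (adjusted p = 0.00131 from limma), and without 6 h replicate 1 the value was −0.96 and no call. The acyl-CoA synthetase LOC100252885, which activates fatty acids, fell 2.08-fold at 6 h and 2.48-fold at 12 h. It went from 1495, 1486 and 1459 in control to 603, 652 and 537 at 12 h (adjusted p = 1.69e-06 from limma). Its 6 h fall was under 2-fold with arrays centred on their median (log2 −0.92).

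Acyl-CoA oxidases, of the first step of peroxisomal beta-oxidation, were named only by the study's list of changed genes and are described without a test. LOC100255430 had 142, 105 and 99.5 in control, 196, 280 and 173 at 6 h and 570, 464 and 444 at 12 h. LOC100257524 had 1622, 1757 and 1494, then 3306, 2532 and 4149, then 7001, 6601 and 5298. In both, 12 h was the highest group on every array.

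The peroxisome word list gave 3 rises and 3 falls among 13 probe sets at 6 h and 3 rises and 7 falls at 12 h. The shares were 23.1% in each direction at 6 h, and 23.1% and 53.8% at 12 h. Titled probe sets had 17.8% rises and 21.1% falls at 6 h, and 21.6% and 25.1% at 12 h. Over all probe sets these were 11.9% and 14.7%, and 14.7% and 17.5%. The list also took in a 2-isopropylmalate synthase (LOC100249820, 1 of the 7 falls), which shares only a word. LOC100261501, a carrier of the peroxisomal membrane, rose 5.49-fold at 12 h (152, 180 and 166 in control, 904, 828 and 999 at 12 h, adjusted p = 2.68e-07 from limma). A probe set with no symbol that is likened to the same Arabidopsis carrier went the other way (log2 −1.16 ± 0.13 at 12 h, from 385 to 492 in control to 180 to 209). LOC100258242, a peroxisomal membrane protein, rose 4.67-fold from 673, 835 and 707 to 3228, 3482 and 3599. The receptor LOC100258381, which brings proteins with the second targeting signal into the organelle, rose 3.49-fold. The receptor of the first signal, LOC100251495, went the other way. It fell by 1.09 on the log2 scale at 6 h, under 2-fold with arrays centred on their median (−0.96), and stood at −0.78 at 12 h, not called. The peroxin-12-like LOC100257920 was lower too (−0.84 and −0.79) and not called. LOC100253859, a hypothetical protein by its gene title whose transcript cluster is titled catalase, fell 20.4-fold and 11.8-fold in its 2 probe sets at 12 h. LOC100244516, likened to an Arabidopsis catalase, which removes hydrogen peroxide, fell 3.14-fold, while the probe set with the symbol GCAT, titled catalase, was not called (adjusted p = 0.0781 at 6 h and 0.986 at 12 h). GOX, a glycolate oxidase of photorespiration, had a log2 change of −1.20 at 12 h.

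Of 15 lipase and phospholipase probe sets, 1 rose and 4 fell at 6 h. The counts at 12 h were 1 and 3, or 6.67% and 20%, of which the rises were below and the falls between the shares of all and of titled probe sets. LOC100260284, likened to a lysophospholipase, an enzyme that takes the remaining acyl chain off a lipid, read 132, 183 and 180 in control, 1450, 1691 and 1789 at 6 h and 1253, 1437 and 1024 at 12 h. No groups overlapped. It rose 3.33 ± 0.17 at 6 h (10.0-fold, adjusted p = 1.67e-07 from limma) and 2.91 ± 0.17 at 12 h (7.51-fold, adjusted p = 2.48e-07).

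The phospholipase-like LOC100261504 fell in both of its probe sets. The brighter had 1183, 1505 and 1750 in control, 320, 301 and 287 at 6 h and 242, 359 and 240 at 12 h, and the dimmer 364 to 412, 66.3 to 82.2 and 54.0 to 70.3. The later groups overlapped each other and lay below control. The log2 changes were −2.27 and −2.36 at 6 h, and −2.41 ± 0.18 and −2.71 ± 0.13 at 12 h (adjusted p = 1.91e-06 and 8.63e-08 from limma). LOC100241574, likened to Arabidopsis phospholipase C 2, which cleaves phosphoinositides, went from 955, 884 and 989 to 240, 222 and 292 at 6 h and 203, 217 and 168 at 12 h, a fall of 2.27 ± 0.13 at 12 h (adjusted p = 3.13e-07).

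The lipase LOC100248095 gave 2 probe sets that agreed in direction and not in the call. The first read 155, 175 and 112 in control, 198, 179 and 198 at 6 h, then 79.1, 95.0 and 107 at 12 h. The 12 h arrays were below the 6 h arrays in both. The step from 6 h to 12 h was −1.04 ± 0.17 in the first (adjusted p = 0.0019 from limma), which was no call without 12 h replicate 1 (−0.92), and −0.59 ± 0.15 in the second (adjusted p = 0.015). Phospholipase D alpha (PLD), chosen after its values were seen, remained bright, with 3821 to 4529 in control, 3198 to 3706 at 6 h and 2088 to 2778 at 12 h, and was not called at either time (log2 −0.25 and −0.73).

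**Figure D5:**
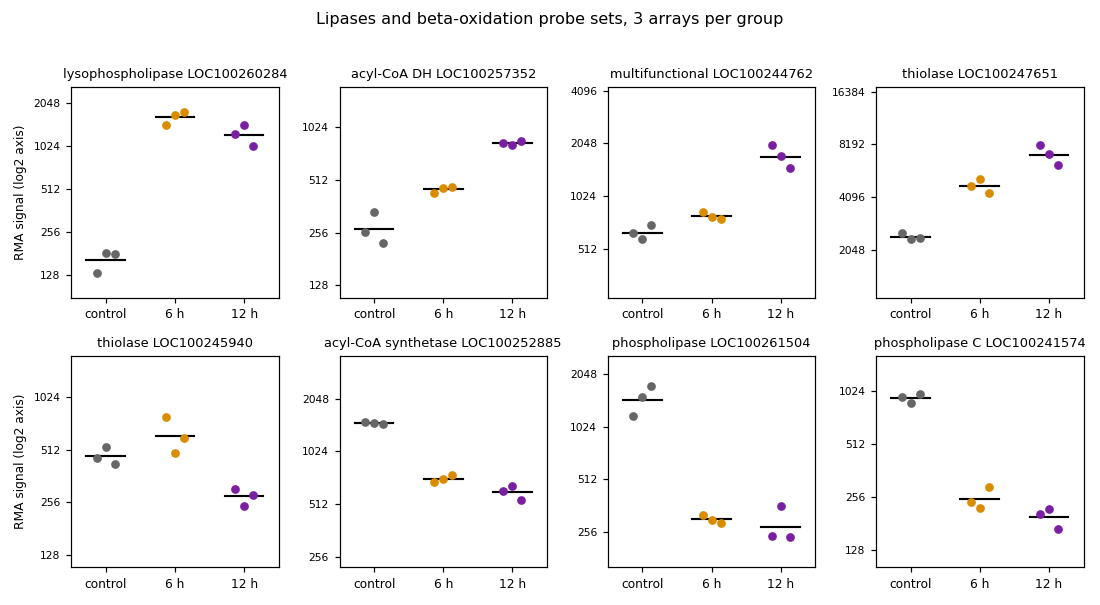
RMA signal on a log2 axis (y) of 8 lipase, phospholipase and beta-oxidation probe sets in control, 6 h and 12 h leaves (x), with 1 point per array and the geometric mean as a bar. The acyl-CoA dehydrogenase (DH), the multifunctional protein and thiolase LOC100247651 step up from control to 12 h, while the phospholipases lie below control at both times.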

How the data were processed

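Per the labels and the study's methods, the authors extracted RNA from each pool of leaves, hybridized it to 1 Affymetrix grape array and deposited linear RMA intensities (background-adjusted and quantile-normalized), 1 for each probe set on each array. The deposited comparison tables also hold SAM scores, q-values and fold changes, which were not used. Only their gene titles were used, since they pair probe sets with genes. The tables list 10471 probe sets, which are brighter (median log2 8.42) than the rest (3.58). The files hold no detection calls.

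The log2 intensities of 16436 probe sets, without 165 controls, were fitted for all 3 groups with limma 3.58.1 in R 4.3.3 (6 residual and 3.42 prior degrees of freedom), with Benjamini-Hochberg adjustment over all of them. The fit was tested on simulated data. Figures used matplotlib 3.10.9. RefSeq gene symbols matched 86 of 94 members. The number of arrays limits the precision.

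The members and word lists were chosen with earlier results of these data known. Named were all called jasmonate members, in each other group up to 6 rises and 6 falls at 12 h against control and up to 3 and 3 at 12 h against 6 h, all probe sets of a named symbol, and up to 3 and 3 of each outside word list. Beside those marked in the text, others were named outside this rule with their values known. These were LOC100256548, LOC100261985, COI1, LOC100266760 and LOC100264477. From the peroxisome list they were GOX, the carrier with no symbol, LOC100249820, LOC100251495, LOC100257920 and GCAT. Alternatives were no fold threshold, an unadjusted p, fits of 2 groups, robust estimation with a trend, omission of the dimmest 25% or of shared probe sets, 3 scalings, averaging by symbol, a replicate block and leaving out each array.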

Additional observations from a re-analysis of the deposited data

Results flagged for a closer look

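The change differed between the times, by the limma test of 12 h against 6 h with at least 2-fold, for 16 of the 94 members (17.0%). Calls in this comparison made up 6.88% of all probe sets and 10.4% of titled ones. The 2 members that were higher at 12 h were an acyl carrier protein probe set of LOC100257302 (log2 1.22) and the multifunctional protein LOC100244762 (1.13). Lower at 12 h were lipid transfer proteins LOC100233106 (−4.33), LOC100249830 (−1.51) and the probe set shared by LOC100232872 and LOC100233106 (−1.04), GDSL lipase LOC100255578 (−1.78) and ketoacyl-CoA synthase LOC100263066 (−1.68) of the surface group. In the membrane group these were desaturases LOC100258789 (−1.77), LOC100247097 (−1.38) and LOC100265385 (−1.16), acyl carrier proteins LOC100253968 (−1.19) and LOC100258657 (−1.04), and sterol C5-desaturase LOC100265283 (−1.34). The rest were thiolase LOC100245940 (−1.14), lipase LOC100248095 (−1.04) and lipoxygenase LOC100251097 (−1.01). The control arrays are shared by both times, and 12 h against 6 h does not use them. Groups of 3 arrays are too small for a test of single outlying arrays.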

How the results depend on the processing

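Without a fold threshold, 23 members rose at 6 h, 25 at 12 h and 20 at 12 h against 6 h, where 29 fell. Without the probe sets marked as shared, 0 members rose at 12 h against 6 h by limma, where 23 of all 94 were higher at an unadjusted p under 0.05 and 2 were called with the shared ones in. When each array was left out in turn, 10 to 13 members rose and 34 to 37 fell at 6 h, 14 to 19 rose and 37 to 41 fell at 12 h, and 2 to 3 rose and 13 to 16 fell between the times. All other alternatives kept these counts within 1.5 times. Over 140 probe sets described or counted, no called change reversed under any of 20 alternatives. Array-median centring moved the median of all probe sets to 0.11 at 6 h and 0.19 at 12 h, and centring on hybridization controls to −0.19 and −0.10. The share of rises among all calls was 44.8% at 6 h and 45.5% at 12 h, with 52.0% and 51.7% under the first and 36.6% and 39.2% under the second. Members that rose and fell numbered 13 and 31 at 6 h and 19 and 35 at 12 h under the first, and 10 and 38, and 14 and 41, under the second. The replicate numbers do not pair the samples (correlations of same-numbered deviations from −0.16 to 0.14), and with a replicate block 4358, 5285 and 1118 probe sets were called against 4367, 5291 and 1130, with no call of these probe sets changed. Dim signals and the absence of detection calls limit the size of the steepest falls.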
